A study of Mus musculus with 30 samples.

Results

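Interferon-stimulated genes are the genes that cells switch on when an interferon has bound its receptor, and they encode much of the antiviral machinery of the cell. A list of 34 such genes was followed through every library of this study. The genes were chosen by symbol. All 34 were found among the 51826 gene identifiers of the count table, and all 34 passed the filter on low counts, which left 19685 genes to test. The study measured RNA by sequencing in slices of the frozen left liver lobe of male C57BL16 mice. Mice of the irradiated arm received 0.2 Gy of 600 MeV/n 56Fe ions, which are iron nuclei of the kind met in galactic cosmic radiation, and mice of the control arm received no irradiation. Livers were taken 30, 60, 120, 270 and 360 days later, called months 1, 2, 4, 9 and 12 here, and each of the 10 groups holds 3 libraries labelled as biological replicates. No transgene, deletion or second agent is named for any group, and the age of the mice at exposure is not among the labels used here. Every sample is a slice of whole liver, so fewer cells of a type and less RNA per cell cannot be told apart in any value below.

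Type I interferons bind the receptor of Ifnar1 and Ifnar2 and activate the kinases Jak1 and Tyk2. These phosphorylate Stat2, which together with Irf9 is part of a complex called ISGF3 that binds the interferon-stimulated response element of target promoters. The targets include sensors of foreign RNA and DNA, enzymes and binding proteins that block viral RNA, the ubiquitin-like modifier ISG15, and Irf7, a transcription factor that feeds back on interferon production. In liver, hepatocytes, endothelium and Kupffer cells, the resident macrophages, can all respond to interferon. DNA released into the cytosol after radiation damage is a known trigger of interferon in many cell types.

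The response element was searched in the promoters of the list as the letters GAAANNGAAA on both strands. The windows ran from 250 bases before to 50 bases after each RefSeq start site of the mouse genome GRCm38.p6. Of the 34 genes, 25 had a window in the table, and 14 of these 25 (56%) held at least 1 match, against 3.99% of 27025 genes with a window. A match describes the letters and is not evidence of binding. The 250 bases before the start site are printed for 5 genes on which the results turn, read 5′ to 3′ on the strand of the gene, with matches to GAAANNGAAA in capitals. Isg15 (chr4:156200819-156201068, minus strand) holds 3 overlapping matches, which begin at positions −78, −72 and −66 relative to the start site. Ifit1 (chr19:34640639-34640888, plus strand) holds 2, at −104 and −85. Rsad2 (chr12:26456453-26456702, minus strand) holds 1 at −120, and Stat2 (chr10:128270248-128270497, plus strand) holds 1 at −222. Cmpk2 (chr12:26468965-26469214, plus strand), the neighbour of Rsad2 on the opposite strand, holds none in this window.
Isg15: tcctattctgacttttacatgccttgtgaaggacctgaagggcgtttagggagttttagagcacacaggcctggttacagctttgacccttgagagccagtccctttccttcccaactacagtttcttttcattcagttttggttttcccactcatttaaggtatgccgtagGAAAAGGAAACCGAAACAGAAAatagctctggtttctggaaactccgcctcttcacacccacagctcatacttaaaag
Ifit1: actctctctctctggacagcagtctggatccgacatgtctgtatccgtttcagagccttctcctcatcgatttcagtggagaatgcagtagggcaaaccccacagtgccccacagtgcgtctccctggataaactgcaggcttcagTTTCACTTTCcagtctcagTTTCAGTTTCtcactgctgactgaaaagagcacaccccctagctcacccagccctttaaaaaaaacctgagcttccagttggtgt
Rsad2: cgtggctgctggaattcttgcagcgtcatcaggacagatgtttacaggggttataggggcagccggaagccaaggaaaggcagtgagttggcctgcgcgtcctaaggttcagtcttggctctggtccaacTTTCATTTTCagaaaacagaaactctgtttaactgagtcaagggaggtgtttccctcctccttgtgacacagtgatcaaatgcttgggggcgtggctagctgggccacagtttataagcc
Stat2: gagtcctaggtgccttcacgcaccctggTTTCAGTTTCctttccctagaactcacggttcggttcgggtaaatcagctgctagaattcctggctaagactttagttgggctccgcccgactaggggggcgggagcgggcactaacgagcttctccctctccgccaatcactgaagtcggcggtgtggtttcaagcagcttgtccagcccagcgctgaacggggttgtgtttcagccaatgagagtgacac
Cmpk2: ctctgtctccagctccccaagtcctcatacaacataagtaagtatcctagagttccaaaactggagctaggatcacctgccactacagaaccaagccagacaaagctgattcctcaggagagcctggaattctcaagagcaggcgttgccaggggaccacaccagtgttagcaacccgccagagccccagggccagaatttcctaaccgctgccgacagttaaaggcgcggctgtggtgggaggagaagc

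Expression was low for most of the list, as levels per length show. Values are in CPM, a gene's counts relative to the scaled size of its library, and levels are compared between genes only as CPM per kilobase of annotated exon, as the mean of the 30 libraries. Bst2, which tethers budding virus particles to the cell surface, was the most abundant at 103 CPM per kilobase. Ifi27 followed at 49.9, the ubiquitin ligase Dtx3l at 15.6, its partner Parp9 at 14.5 and Stat2 at 13.3. At the low end stood Cxcl10, a chemokine that draws T cells, at 0.782, Oasl2 at 0.7, Ifi44 at 0.622, Oas1g at 0.53 and Oas3 at 0.318. The lowest count behind a value was 3 reads for Oas1g and 7 reads for Ifit3b. Neighbours in this order differ by less than the range over groups: Dtx3l ran from 9.93 to 19.1 CPM per kilobase over the 10 groups and Parp9 from 10.4 to 18.3. Counts of Ifit3 with Ifit3b and of Oas1a with Oas1g are uncertain, since these near-identical pairs can share reads. Dtx3l with Parp9, Irf7 with Phrf1, Dhx58 with Dhx58os, Oasl1 with Gm13822, Usp18 with Gm44148, Ifi35 with Gm11626 and Cxcl10 with Art3 overlap in exons on opposite strands, and which strand was counted is not given in the sources used here. Irf9, Herc6, Parp14 and Rtp4 overlap another gene on the same strand.

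**Figure D1:**
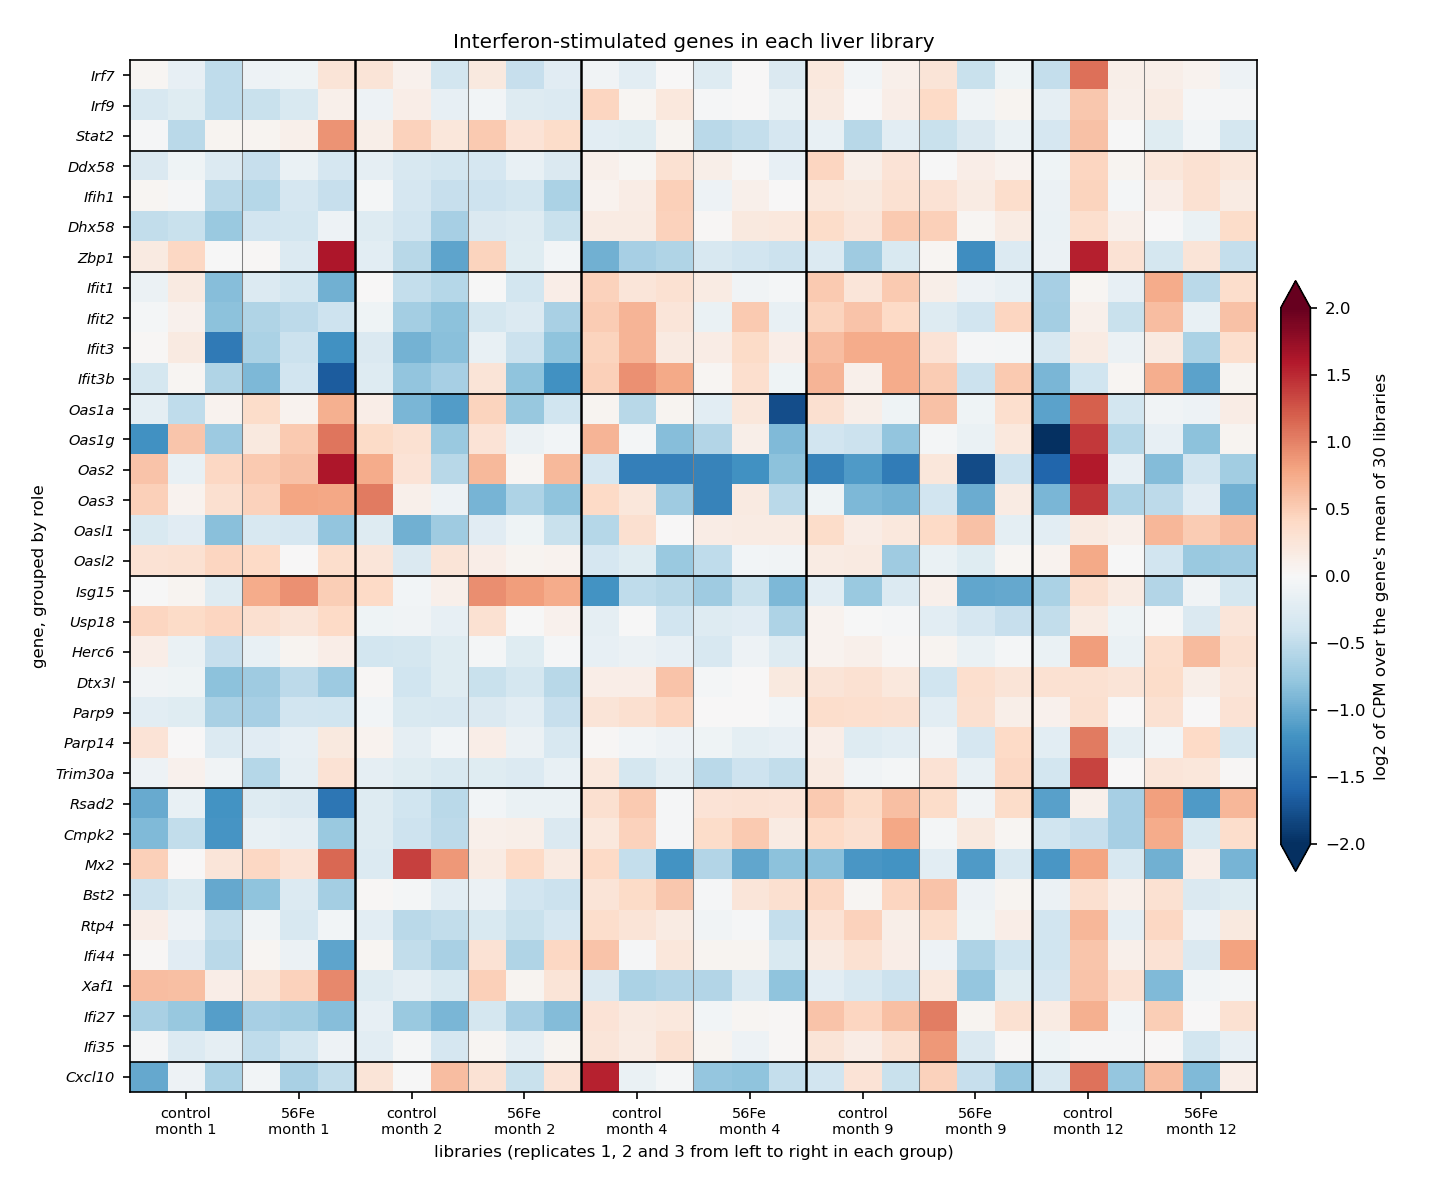
Each cell gives the log2 of a gene's CPM over that gene's mean of the 30 libraries, with the 34 genes in rows by role and the 30 libraries in columns by month and arm (replicates 1, 2 and 3 from left to right). The column of control replicate 2 at month 12 is red for most genes, and Ifi27 is the row in which every library of months 1 and 2 lies below every later one.

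Libraries held between 7995248 and 20215995 counts. The libraries of months 1 and 2 differ in make-up from the later ones: the transcript Gm26917 took 3.04 to 7.57% of counts in the early 12 and 0.452 to 2.04% in the later 18, so time and this difference cannot be told apart across that border. The share also differed between arms, with means of 4.1% ± 1.72 (SD, n = 3) in control against 6.77% ± 0.69 (SD, n = 3) in irradiated livers at month 1, and 4.03% ± 0.72 against 5.65% ± 1.13 (SD, n = 3 each) at month 2. The tissue label was checked by hepatocyte markers such as Alb and Apob, which summed to 39367 to 120699 CPM in the 30 libraries, with a median of 95163.

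Libraries of 1 group differed in these genes, so the number of genes in each library over 1.5-fold the mean of the other 2 of its group was counted. It was 18 of 34 in control replicate 2 at month 12, 8 in irradiated replicate 1 at month 9, 7 each in irradiated replicate 3 at month 1 and control replicate 1 at month 2, and at most 5 in the other 26. The same counts over all genes tested were 17.9, 15.7, 10.4 and 9.16%. Control replicate 1 at month 12 was the lowest of its 3 for 28 of the 34 genes, against 29.5% of all genes tested. Control replicate 1 at month 2 was the highest for 25, against 35.4%. Irradiated replicate 2 at month 9 was the lowest for 24, against 34.5%. Control replicate 3 was the lowest for 22 at month 1 and for 22 at month 2, against 43.6 and 28.7%. Values without such a library are given where it moves a result. Control replicate 2 at month 12 was the highest of its 3 libraries for 31 of the 34 genes, against 37.5% of all genes tested. Its ratio to the mean of the other 2 control libraries was 6.35 for Oas1g, 4.86 for Oas2, 4.56 for Oas3 and 3.66 for Oas1a, enzymes that make the signal for RNA cleavage by RNase L. It was 3.06 for Cxcl10, 2.84 for Trim30a, 2.76 for Zbp1 and 2.37 for Irf7. Against this, Cmpk2 was at 1.04, Ifi35 at 1.03, Dtx3l at 1.02 and Ifit3b at 0.983, so the excess was not shared by the whole list. In the same library the 11 Kupffer cell markers summed to 1502 CPM, against 243 and 276 in the other 2 control libraries, and the 9 neutrophil markers to 65.6 CPM, against 3.1 and 2.11. Monocyte markers summed to 44.6 CPM (9.15 and 6.79 in the others), B cell markers to 28.7 (6.12 and 8.59) and T and NK cell markers to 8.05 (3.38 and 4.81). Endothelial markers summed to 464 CPM (449 and 405), but not all kept their level. Pecam1 was at 44.7 CPM (22.9 and 20.1) and Cdh5 at 65.4 (33.4 and 30.8), while Kdr was at 51.9 (91.6 and 75.7). Hepatocyte markers summed to 120699 CPM (97160 and 104431), with Fgb at 9818 (3666 and 3091). The part of these cells in the excess was not tested.

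Irradiated replicate 3 at month 1 is described next because it holds the highest values of Stat2 and Oas2 in the irradiated arm and of Zbp1 in the series. The 7 genes over 1.5-fold were Zbp1 at 3.34, Oas2 at 2.1, Stat2 at 1.76, Mx2 at 1.75, Oas1g at 1.62, Trim30a at 1.57 and Xaf1 at 1.52. Other genes of the list were lower there than in its partners, with ratios of 0.445 for Rsad2, 0.482 for Ifit3b, 0.494 for Ifi44, 0.624 for Ifit3, 0.642 for Ifit1 and 0.671 for Cmpk2. Zbp1, Oas2 and Stat2 thus lay above, and 3 of the 4 IFIT genes with Rsad2 and Cmpk2 below, their partners within 1 library. Neutrophil markers summed to 21.6 CPM there (4.97 and 3.59 in the other 2), Kupffer cell markers to 464 (272 and 349) and hepatocyte markers to 39367 (48933 and 60346). Among the hepatocyte markers only Fgb lay above both partners, at 8061 CPM (3088 and 3192), while Alb was at 15771 CPM (27692 and 33135). The part of these in the pattern was not tested.

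**Figure D2:**
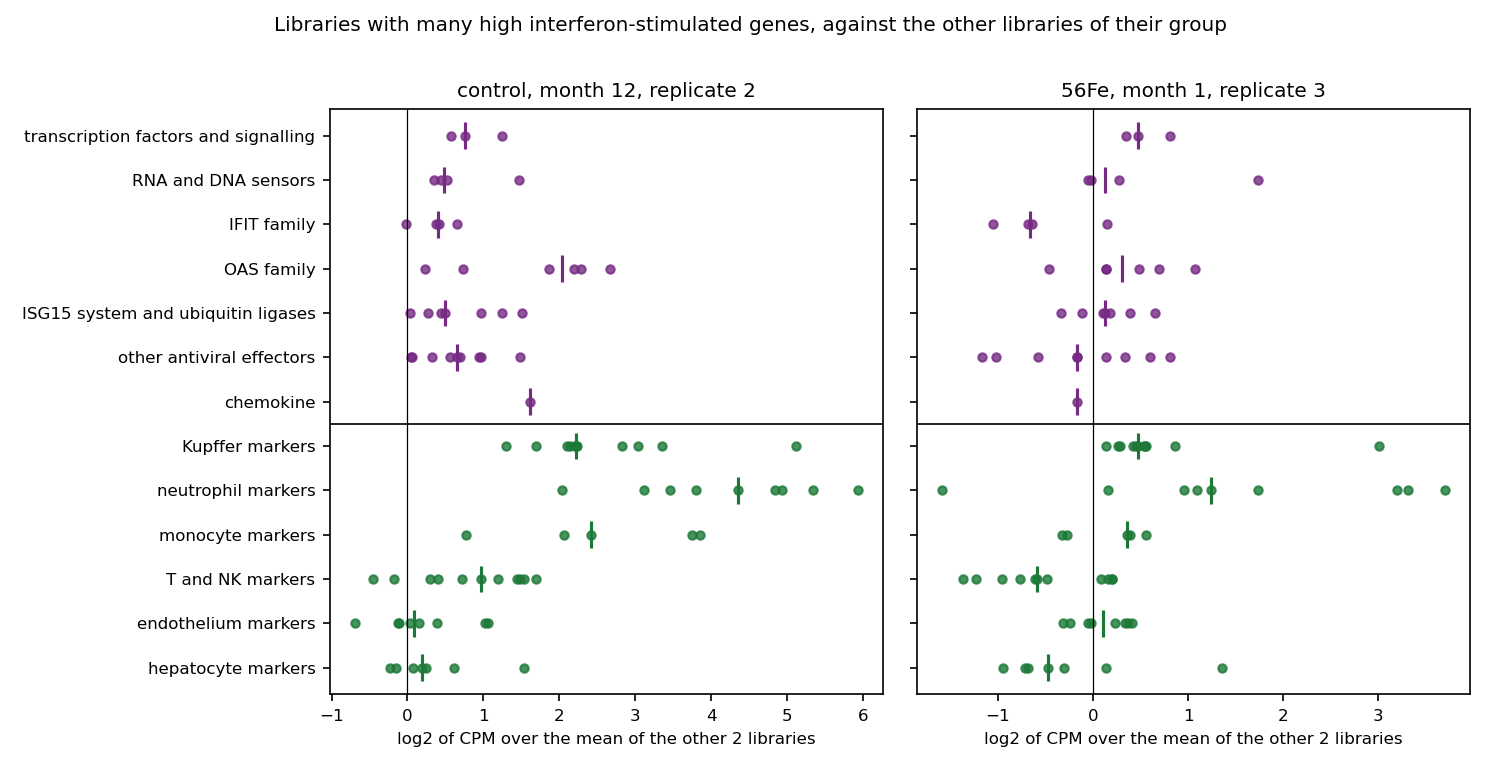
For control replicate 2 at month 12 and irradiated replicate 3 at month 1, points give the log2 of CPM over the mean of the other 2 libraries of the group, for the list by role (purple) and for cell type markers (green), with a vertical tick at the median of each row. In the control library the OAS genes, Kupffer cell markers and neutrophil markers lie to the right of 0, while in the irradiated library 3 of the 4 IFIT genes lie to the left of it.

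Irradiated livers were then compared with control livers at each month, to ask whether iron ions alter the interferon-stimulated genes of the liver and for how long. None of the 34 genes passed the test at any of the 5 months. The test was edgeR's quasi-likelihood test with Benjamini-Hochberg adjustment over the 19685 genes, and a gene was called at an adjusted p under 0.05. All adjusted p-values below come from it. At month 1, edgeR called 0 of the 34 (4 at an unadjusted p under 0.05; DESeq2 called 1 and limma voom 2), against 4.6% of all genes called. At month 2 it called 0 (2 unadjusted; DESeq2 0, voom 1), against 4.37% of all genes. At month 4 it called 0 (3 unadjusted; DESeq2 0, voom 3), against 3.6%. At month 9 it called 0 (3 unadjusted; DESeq2 0, voom 0), against 1.66%. At month 12 it called 0 (7 unadjusted; DESeq2 2, voom 0), and no gene of the whole table was called, a share of 0%. The members that passed at an unadjusted p under 0.05 thus made up 11.8, 5.88, 8.82, 8.82 and 20.6% of the list at the 5 months, where all genes gave 16.9, 21.6, 19.1, 16.1 and 13.5%.

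The fitted differences were small for most of the list, and their intervals set how large a missed difference could be. The 95% interval of the log2 fold change (irradiated over control) stayed within ±1, a 2-fold difference, for 24, 23, 26, 25 and 20 of the 34 genes at months 1, 2, 4, 9 and 12. The median standard error was 0.25 at each month. Over months 1, 2, 4, 9 and 12, in that order, the list had medians of 0.03, 0.09, −0.23, −0.07 and −0.08 on the log2 scale, where all genes had −0.03, −0.02, 0.04, 0.00 and −0.02. Month 4 had the most uniform signs, with 29 of the 34 genes below 0, and 26 below 0 with upper quartile scaling, which put the median at −0.15. At month 12, 20 of 34 were below 0, but without control replicate 2 the count was 8 below and 26 above 0, with a median of 0.22, and without control replicate 1 it was 27 below 0, with a median of −0.16. At month 2, 21 of 34 were above 0, and without control replicate 1 it was 25, with a median of 0.19. At month 9, 20 of 34 were below 0, and without irradiated replicate 1 it was 23, with a median of −0.21. Limma voom was run with library quality weights, which can lower the weight of a library that stands apart. With all libraries kept, it gave 22 above 0 and a median of 0.17 at month 12. At month 1 it gave 15 above 0 with a median of −0.09, where edgeR gave 17 above 0. Upper quartile scaling gave 24 above 0 at month 1, with a median of 0.14.

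Arms whose libraries did not overlap were found for 3 genes at month 1, all higher after irradiation, against 18.6% of all genes in either direction. These were Isg15, Dhx58 and Oas1a. At month 2 there were 5, against 34.2% of all genes, of which Isg15, Xaf1, Usp18 and Rsad2 were higher and Oas3 lower. At month 4 there were 11, against 30.2%, of which Zbp1 was higher and Cxcl10, Parp9, Rtp4, Irf9, Ifit3b, Stat2, Trim30a, Ifi35, Ifit1 and Ifi27 lower. At month 9 there were 7, against 18.2%, with Oas1g higher and Ifit3, Usp18, Cmpk2, Ifi44, Ifit1 and Rsad2 lower. At month 12 there were 3, against 15.5%, with Cmpk2 and Oasl1 higher and Oasl2 lower. The share of the list separated in this way was close to that of all genes at months 4 and 9 and below it at months 1, 2 and 12.

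**Figure D3:**
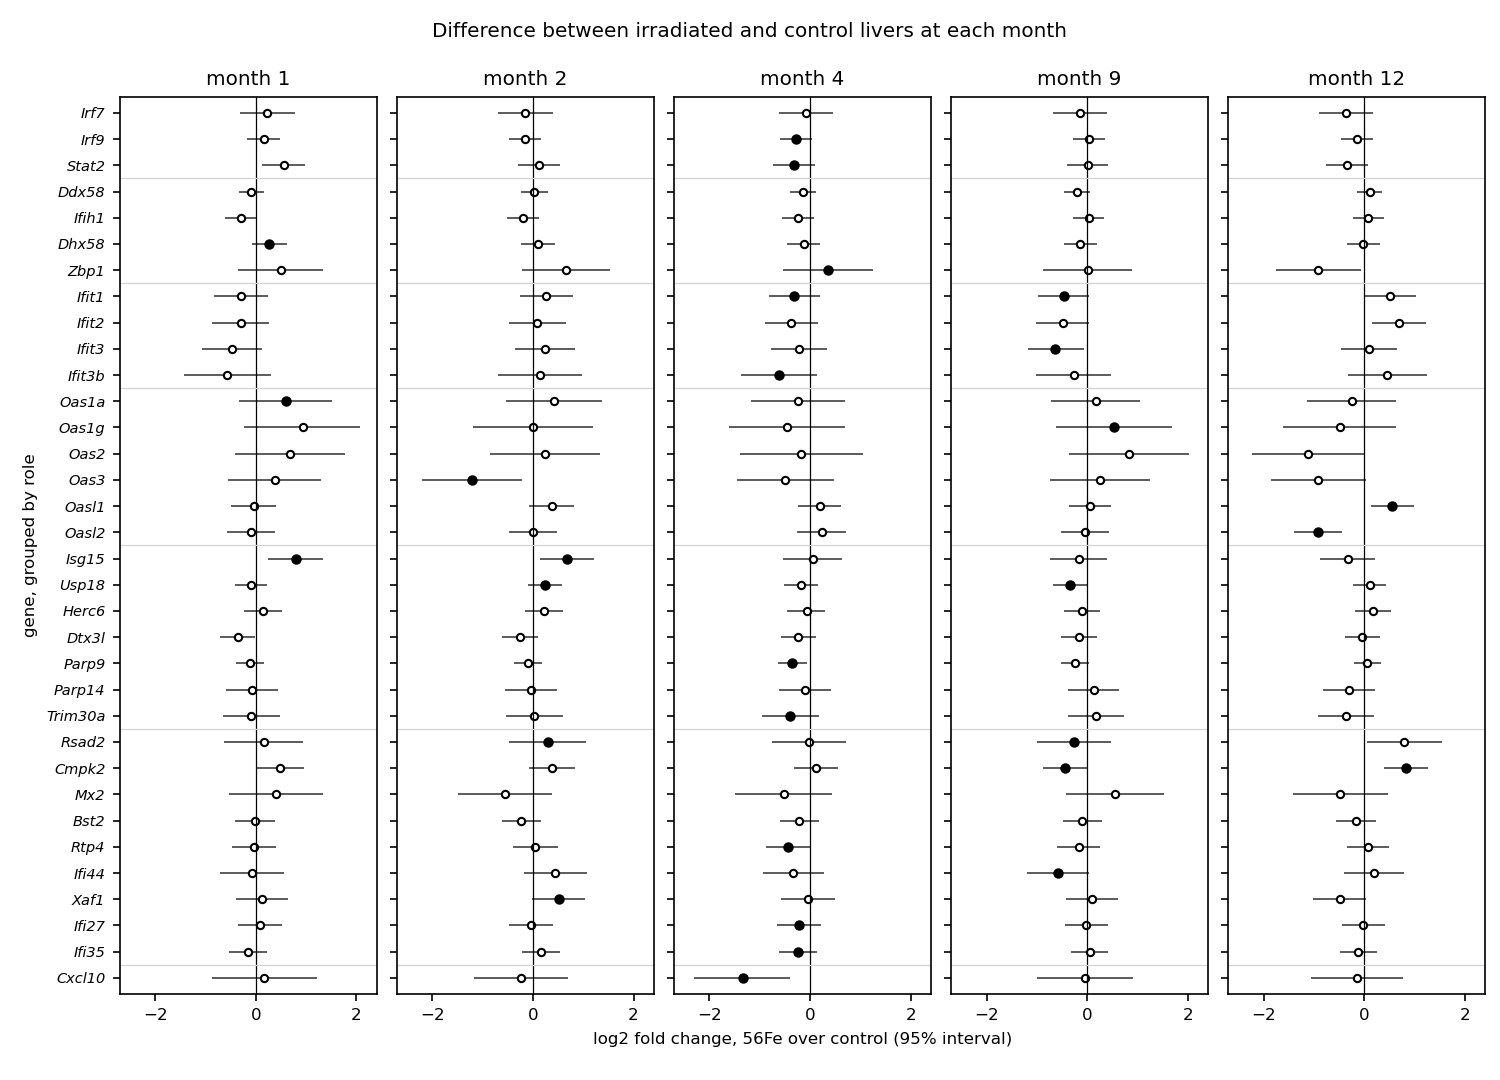
Points give the log2 fold change of irradiated over control livers for each gene and month and lines its 95% interval, and filled points mark genes whose libraries do not overlap between the arms. Most intervals cross 0, the points of the list at month 4 lie mainly to the left, and the 4 IFIT genes lie left of 0 at months 1, 4 and 9 and right of it at months 2 and 12.

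Among the signalling genes, Stat2, the interferon-specific subunit of ISGF3 (chr10:128270559-128292849, plus strand), had the largest difference at month 1. At month 1 it stood at 77.8, 54.3 and 82.4 CPM in control and 82.1, 84.9 and 147 CPM in irradiated livers. At month 2 it stood at 86.1, 109 and 92 CPM in control and 114, 95.3 and 102 CPM in irradiated livers. The arms overlapped at both months, and the 147 came from irradiated replicate 3 at month 1. The log2 fold change of Stat2 at month 1 was 0.55 ± 0.20 (SE; adjusted p = 0.137), and 0.24 without that library (adjusted p = 0.722). At month 4 Stat2 was at 68.1, 67 and 81.9 CPM in control and 54.4, 56.8 and 62.9 CPM in irradiated livers, with every irradiated library lower, at −0.32 ± 0.20 (SE; adjusted p = 0.417). At month 9 the control livers had 71, 53.9 and 68.3 CPM and the irradiated ones 57.7, 64.3 and 72 CPM. At month 12 they had 62.5, 119 and 78.2 CPM against 66.5, 76.1 and 62 CPM. The arms overlapped at both of these months.

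Irf7 (chr7:141262706-141266481, minus strand) amplifies the response, and its libraries overlapped between the arms at every month. Its 3 control libraries of month 1 had 27.9, 24.1 and 19 CPM, those of month 2 had 32.5, 28.7 and 21.1, those of month 4 had 25.8, 23.5 and 27.2, and those of month 9 had 31.4, 26.1 and 29. The irradiated libraries of the same 4 months had 25.2, 25.7 and 32.4 CPM, then 31, 19.8 and 23.2, then 22.8, 27.3 and 22.1, and last 32.6, 20 and 25.6. At month 12 the control libraries had 19.6, 58.1 and 29.5 CPM and the irradiated ones 29.4, 28.4 and 25.3 CPM. The highest of the 30 values, 58.1 CPM, was that of control replicate 2 at month 12, and the next was 32.6 CPM. The log2 fold changes ran from −0.37 to 0.23 with a standard error of 0.26 at each month. Irf9, the DNA-binding subunit of ISGF3, was 1 of the genes with all irradiated libraries lower at month 4, at −0.28 ± 0.16 (SE; adjusted p = 0.339).

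Of the 4 sensors, Ddx58 (RIG-I), Ifih1 (MDA5) and Dhx58 (LGP2) detect double-stranded RNA, and Zbp1 binds nucleic acids in the Z form and can start cell death. Ifih1 had −0.30 ± 0.15 (SE; adjusted p = 0.315) at month 1. Zbp1 (chr2:173206612-173218923, minus strand) was at 5.4, 6.36 and 4.79 CPM in control and 4.88, 3.96 and 14.7 CPM in irradiated livers at month 1, and at 4.14, 3.28 and 2.3 against 6.54, 4.06 and 4.61 CPM at month 2. Its arms overlapped at both months. At month 4 the control libraries had 2.45, 3.02 and 3.17 CPM and the irradiated ones 3.84, 3.69 and 3.56 CPM, all higher, by 0.36 ± 0.44 on the log2 scale (SE; adjusted p = 0.716). At month 9 the values were 3.98, 2.93 and 3.9 CPM against 4.92, 2.03 and 3.97 CPM, and at month 12 they were 4.43, 14.1 and 5.83 CPM against 3.74, 5.75 and 3.44 CPM. The difference at month 12 was −0.91 ± 0.41 (SE; adjusted p = 0.332) and −0.27 without control replicate 2. The 2 highest values of Zbp1, 14.1 and 14.7 CPM, were those of control replicate 2 at month 12 and irradiated replicate 3 at month 1.

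The 4 IFIT genes, whose products bind viral RNA and block its translation, had the same sign as each other at every month, though none was called. Their median log2 fold changes, in the order of months 1, 2, 4, 9 and 12, were −0.39, 0.19, −0.34, −0.48 and 0.48, with 0, 4, 0, 0 and 4 of the 4 above 0. The counts were the same with DESeq2 scaling factors, upper quartile factors, DESeq2 and voom. Without control replicate 1 at month 12, 3 of 4 were above 0 there. With the log2 CPM of Gm26917 as a covariate they were 1, 3, 2 and 3 of 4 above 0 at months 1, 2, 4 and 12. The genes lie together on chromosome 19, and Ifit3 and Ifit3b can share reads, so they do not count as 4 separate observations.

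Ifit1 (chr19:34640871-34650009, plus strand) was at 8.27, 10.2 and 4.98 CPM in control and 7.46, 6.95 and 4.63 CPM in irradiated livers at month 1. At month 2 it was at 9.02, 6.49 and 6.03 against 8.95, 6.99 and 9.88 CPM. The arms overlapped at both. At month 4 the control values of 12.4, 10.7 and 11.1 CPM all lay above the irradiated ones of 10.1, 8.58 and 8.79 CPM, and at month 9 those of 13, 10.6 and 12.9 CPM above 9.76, 8.42 and 8.08 CPM. At month 12 the order turned in part, with 5.7, 9.2 and 8.07 CPM in control and 15.1, 6.19 and 11.5 CPM in irradiated livers. The log2 fold changes were −0.30, 0.26, −0.31, −0.47 and 0.51 in the order of months, with standard errors of 0.25 or 0.26 and adjusted p-values of at least 0.358.

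Ifit2 (chr19:34550694-34576419, plus strand) was at 5.33, 5.81 and 3.1 CPM in control and 3.64, 3.81 and 4.14 CPM in irradiated livers at month 1, and at 5.2, 3.43 and 3.11 against 4.31, 4.55 and 3.51 CPM at month 2. It was at 7.8, 8.8 and 6.52 against 5, 7.91 and 4.97 CPM at month 4, and at 7.46, 8.15 and 7.22 against 4.58, 4.21 and 7.39 CPM at month 9. At month 12 it was at 3.45, 5.89 and 4.04 against 8.39, 4.98 and 8.25 CPM. The arms overlapped at all 5 months. The differences at months 9 and 12 were −0.49 ± 0.26 (SE; adjusted p = 0.358) and 0.69 ± 0.26 (SE; adjusted p = 0.259), and Ifit3 had −0.63 ± 0.27 (SE; adjusted p = 0.237) at month 9. Irradiated replicate 2 at month 12 was the low one of its group for Ifit1, Ifit2 and Rsad2, and its neutrophil markers summed to 23.6 CPM against 2.23 and 2.73 in the other 2. The part of those cells was not tested.

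The 6 genes of the OAS family differed in sign by month and by library. Oas1a, Oas1g, Oas2 and Oas3 sense double-stranded RNA and activate RNase L, and the related Oasl1 and Oasl2 were counted with them. The median log2 fold change of the 6 was 0.48 at month 1, with 4 of 6 above 0, and 0.30 with 5 of 6 above 0 without irradiated replicate 3. It was 0.21 at month 9, with 5 of 6 above 0. At month 12 it was −0.70 with 1 of 6 above 0, but without control replicate 2 it was 0.41 with 5 of 6 above 0, so that 1 library set its sign. Oas2 (chr5:120730333-120749853, minus strand) was at 6.87, 4.18 and 6.2 CPM in control and 6.66, 6.95 and 14.3 CPM in irradiated livers at month 1, and at 7.8, 5.61 and 3.18 against 7.32, 4.79 and 7.29 CPM at month 2. At month 4 it was at 3.67, 1.81 and 1.8 against 1.85, 2.01 and 2.62 CPM, and at month 9 at 1.85, 2.12 and 1.76 against 5.44, 1.35 and 3.49 CPM. At month 12 the control libraries had 1.55, 13.9 and 4.16 CPM and the irradiated ones 2.56, 3.58 and 2.87 CPM. Its arms overlapped at every month, with the highest control value in replicate 2 at month 12 and the highest irradiated value in replicate 3 at month 1. Oas3 was at 4.63, 2.41 and 2.1 CPM in control and 1.18, 1.46 and 1.29 CPM in irradiated livers at month 2, with a difference of −1.21 ± 0.48 on the log2 scale (SE; adjusted p = 0.14). All its irradiated values lay lower there.

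Oasl1 and Oasl2 are related proteins, and at month 12 they differed in opposite directions. Oasl2 was at 4.71, 7.58 and 4.42 CPM in control and 3.41, 2.68 and 2.73 CPM in irradiated livers, at −0.92 ± 0.24 (SE; adjusted p = 0.121, and −0.65 without control replicate 2). Oasl1, which holds back translation of Irf7, was at 9.92, 13 and 12.3 against 18.2, 16.3 and 17.6 CPM, at 0.56 ± 0.21 (SE; adjusted p = 0.233). In both genes the arms did not overlap. DESeq2 called Oasl2 with an adjusted p of 0.0388, and edgeR did not.

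ISG15 is attached to other proteins as a tag, USP18 removes it and also silences the receptor, and Herc6 is the mouse ligase that attaches it. Isg15 (chr4:156199424-156200818, minus strand) was at 4, 4.18 and 3.38 CPM in control and 6.75, 7.62 and 5.69 CPM in irradiated livers at month 1, means of 3.85 ± 0.417 and 6.68 ± 0.969 (SD, n = 3 each). At month 2 it was at 5.28, 3.86 and 4.33 against 7.65, 7.15 and 6.74 CPM, means of 4.49 ± 0.721 and 7.18 ± 0.455 (SD, n = 3 each). All 3 irradiated libraries lay above all 3 controls at both months, with log2 fold changes of 0.79 ± 0.26 (SE; adjusted p = 0.0864) and 0.68 ± 0.26 (SE; adjusted p = 0.12). At month 4 Isg15 was at 1.76, 2.82 and 2.74 against 2.47, 2.95 and 2.15 CPM, and at month 9 at 3.48, 2.41 and 3.32 against 4.32, 1.95 and 1.99 CPM. At month 12 it was at 2.6, 5.01 and 4.49 against 2.69, 3.83 and 3.16 CPM. The arms overlapped at these 3 months.

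The early difference of Isg15 sat at the edge of the threshold. At month 1 it was called in 5 of 10 other ways of processing, among them DESeq2 (adjusted p = 0.0327) and limma voom (0.0219), and in 0 of 6 fits that left out 1 library. With the log2 CPM of Gm26917 as a covariate in edgeR it was 0.31 (adjusted p = 0.882) at month 1 and 0.46 (adjusted p = 0.445) at month 2. At both months the share of Gm26917 was higher in every irradiated library than in every control. It was 6.36 to 7.57% against 3.04 to 6.09% at month 1 and 4.79 to 6.93% against 3.32 to 4.76% at month 2. This fit therefore cannot cleanly separate irradiation from that share. Its part in the difference was not tested further.

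Usp18 (chr6:121245906-121270917, plus strand) was at 12, 11.6 and 12 CPM in control and 11.1, 10.5 and 11.8 CPM in irradiated livers at month 1, and at 8.37, 8.53 and 7.99 against 11, 8.85 and 9.51 CPM at month 2. At month 4 it was at 7.87, 8.87 and 6.86 against 7.47, 7.64 and 5.84 CPM, and at month 9 at 9.37, 8.84 and 8.78 against 7.68, 7.07 and 6.5 CPM. At month 12 it was at 6.33, 10 and 8.39 against 8.85, 7.28 and 10.6 CPM. Irradiated libraries were all higher at month 2 and all lower at month 9, by 0.24 ± 0.16 and −0.35 ± 0.16 on the log2 scale (SE; adjusted p = 0.398 and 0.284). Parp9, which pairs with Dtx3l to modify histones, was at 84.6, 87.7 and 94.7 CPM in control and 71, 70.6 and 67.7 CPM in irradiated livers at month 4, at −0.35 ± 0.14 (SE; adjusted p = 0.144). Here too no libraries overlapped, and with the Gm26917 covariate the value was −0.14.

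Among the remaining effectors, Cmpk2, a mitochondrial nucleotide kinase (chr12:26469204-26479837, plus strand), was the gene of the list called both for an effect that differed between months and for its change over time in control livers, as described further on. At month 1 it was at 4.73, 6.18 and 3.85 CPM in control and 7.81, 7.69 and 5.2 CPM in irradiated livers, and at month 2 at 7.31, 6.56 and 6.03 against 9.28, 9.42 and 7.11 CPM. At month 4 it was at 10.1, 12 and 8.57 against 11.2, 12.5 and 9.73 CPM. The arms overlapped at these 3 months. At month 9 the control livers had 11.4, 10.9 and 14.8 CPM (mean 12.4 ± 2.1, SD, n = 3) and the irradiated ones 8.46, 10 and 8.9 CPM (9.12 ± 0.791), all lower, at −0.44 ± 0.21 (SE; adjusted p = 0.301). At month 12 the control livers had 6.61, 6.29 and 5.51 CPM (6.14 ± 0.568, SD, n = 3) and the irradiated ones 14.6, 7.02 and 11.1 CPM (10.9 ± 3.8), all higher, at 0.83 ± 0.22 (SE; adjusted p = 0.121). The irradiated libraries thus lay below control at month 9 and above it at month 12. DESeq2 called the difference at month 12 with an adjusted p of 0.0318.

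Rsad2 encodes viperin, an enzyme that makes a chain-terminating nucleotide, and shares its locus with Cmpk2. At month 12 it was at 5.91, 13.5 and 7.94 CPM in control and 22.1, 5.75 and 19.8 CPM in irradiated livers, at 0.79 ± 0.36 (SE; adjusted p = 0.34). The irradiated value of 5.75 CPM was the lowest of all 6, so the arms overlapped. Bst2 (chr8:71534255-71537456, minus strand) was at 68.9, 75.3 and 46 CPM in control and 53.4, 76.9 and 58 CPM in irradiated livers at month 1, and at 94.8, 91 and 80.5 against 86, 71.8 and 69.2 CPM at month 2. It was at 111, 121 and 135 against 91.4, 110 and 117 CPM at month 4, at 124, 96.2 and 126 against 139, 87.2 and 97.1 CPM at month 9, and at 86.2, 116 and 100 against 115, 76.2 and 78.6 CPM at month 12. Its arms overlapped at all 5 months, and its log2 fold changes lay between −0.23 and −0.01 with a standard error of 0.19.

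Cxcl10 (chr5:92346638-92348889, minus strand), the chemokine of the list, was at 0.867, 1.64 and 1.13 CPM in control and 1.69, 1.12 and 1.25 CPM in irradiated livers at month 1, and at 2.11, 1.75 and 2.71 against 2.16, 1.3 and 2.12 CPM at month 2. At month 4 it was at 5.12, 1.61 and 1.71 CPM in control and 1.03, 1.01 and 1.27 CPM in irradiated livers, all lower, at −1.34 ± 0.47 (SE; adjusted p = 0.102). That value rested mostly on control replicate 1, and without it the log2 fold change was −0.61 (adjusted p = 0.553). At month 9 it was at 1.35, 2.12 and 1.3 against 2.42, 1.28 and 1.03 CPM, and at month 12 at 1.41, 3.72 and 1.03 against 2.69, 0.958 and 1.94 CPM, with overlap at both.

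**Figure D4:**
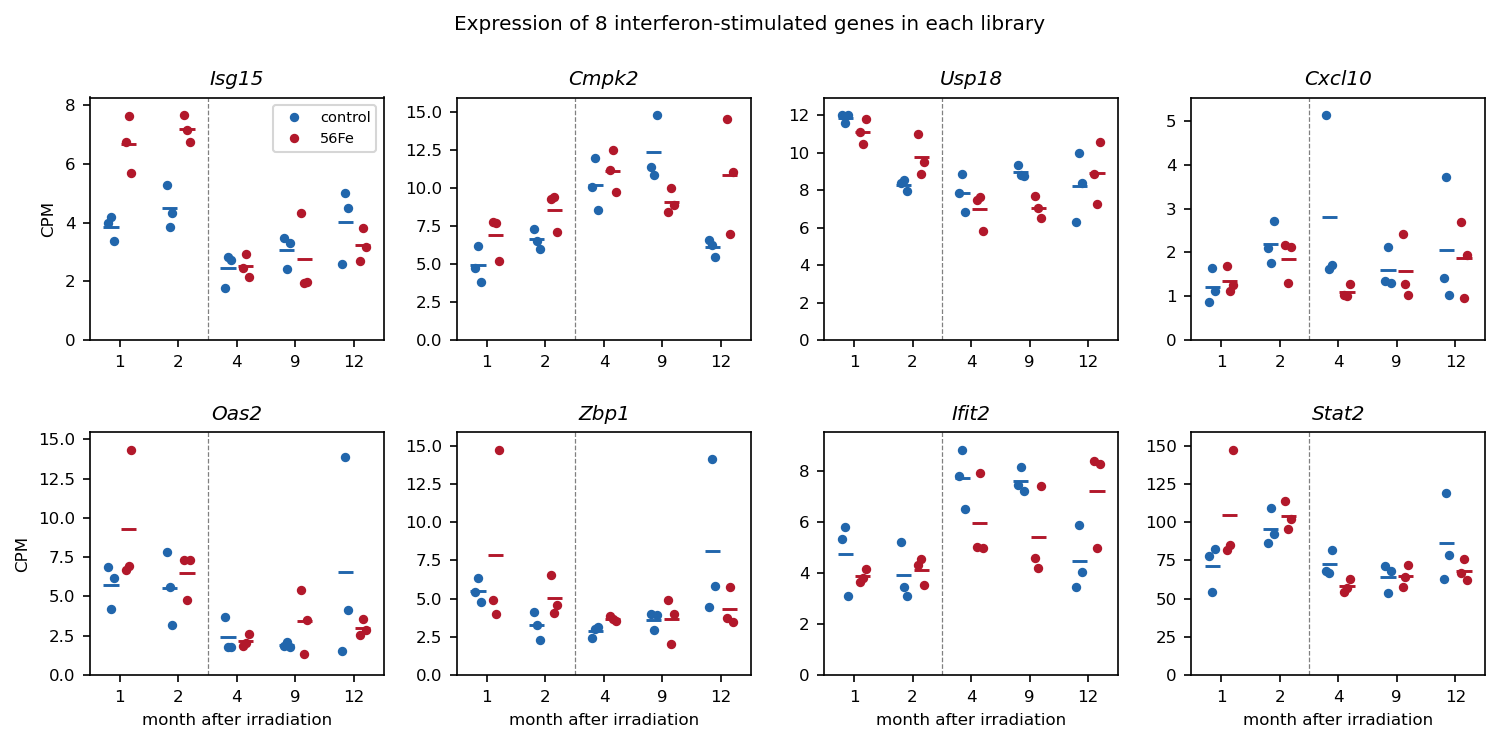
Points give the CPM of 8 genes in each of the 30 libraries, blue for control and red for irradiated livers, with bars at the group means and a dashed line between months 1 and 2 and the later months. Isg15 is separated between arms at months 1 and 2, Cmpk2 at months 9 and 12 in opposite directions, and Zbp1 and Oas2 each have a control value at month 12 and an irradiated value at month 1 far above the rest of their group.

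Averaged over the 5 months, irradiation left the list close to 0. EdgeR called 0 of the 34 genes (4 at an unadjusted p under 0.05; DESeq2 0, voom 1), where it called 5.26% of all genes. All 34 intervals of the mean log2 fold change lay within ±1, and the values ran from −0.39 to 0.28 with a median of −0.07 (all genes −0.00). The smallest p-values belonged to Cmpk2 at 0.28 ± 0.10 (SE; adjusted p = 0.0853), Dtx3l at −0.21 ± 0.08 (SE; adjusted p = 0.0977), Parp9 at −0.15 ± 0.06 (SE; adjusted p = 0.138), Oasl1 at 0.23 ± 0.09 (SE; adjusted p = 0.146) and Oas3 at −0.39 ± 0.21 (SE; adjusted p = 0.278). Without control replicate 3 of month 1, Dtx3l and Parp9 were called, and without irradiated replicate 2 of month 12 Cmpk2 was called.

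Whether the irradiation effect differed between months was tested for each gene with an F test over the 5 monthly differences. Cmpk2 was the 1 gene of the list that passed (adjusted p = 0.0406; DESeq2 called 3 genes of the list and voom 5), against 11% of all genes. Its log2 fold changes were 0.49, 0.38, 0.12, −0.44 and 0.83 at months 1, 2, 4, 9 and 12. The next smallest adjusted p-values were 0.0926 for Isg15, 0.102 for Oasl2, 0.107 for Ifit2 and 0.122 for Stat2. The call of Cmpk2 held in 8 of 9 other ways of processing, with adjusted p-values of 0.0116 to 0.101, the highest from the Gm26917 covariate. It held in 13 of 30 fits that left out 1 library, with 0.00771 to 0.114.

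Within control livers, Usp18 fell from month 1 to month 2, by 0.52 on the log2 scale ± 0.16 (SE; adjusted p = 0.0391), from 11.9 ± 0.224 to 8.3 ± 0.277 CPM (SD, n = 3 each). It was the 1 gene of the list called (DESeq2 2, voom 4), against 9.8% of all genes, and all 3 values of month 2 lay below all 3 of month 1. Xaf1, a pro-apoptotic antagonist of XIAP, had −0.71 ± 0.26 (SE; adjusted p = 0.0725), Bst2 had 0.48 ± 0.19 (SE; adjusted p = 0.106), Stat2 0.42 ± 0.20 (SE; adjusted p = 0.197) and Irf9 0.32 ± 0.16 (SE; adjusted p = 0.202). The call of Usp18 was kept in 1 of 6 fits that left out 1 library, with adjusted p-values of 0.0475 to 0.129. In the same comparison 4 of 6 B cell markers were called lower, while the endothelial markers Lyve1 and Pecam1, the cholangiocyte markers Sox9 and Krt19 and the hepatocyte marker Serpina1c were called higher. The part of cell numbers was not tested.

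In irradiated livers edgeR called 0 of the 34 genes between months 1 and 2 (1 at an unadjusted p under 0.05; DESeq2 0, voom 1), against 0.00508% of all genes. Oas3 had the smallest p, at −1.46 ± 0.48 (SE; adjusted p = 0.257), followed by Ifit1 at 0.43 ± 0.26, Ifi35 at 0.29 ± 0.19, Zbp1 at −0.61 ± 0.41 and Cmpk2 at 0.32 ± 0.22 (SE). The value of Zbp1 turned to 0.17 without irradiated replicate 3 of month 1. Whether the fall of Usp18 from month 1 to month 2 differed between the arms was not tested.

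Over months 4, 9 and 12, 4 genes of the list changed in control livers: Cmpk2 (adjusted p = 0.00352), Zbp1 (0.0197), Oas2 (0.04) and Ifit2 (0.0447). DESeq2 called 5 and voom 6, and edgeR called 20.2% of all genes, so the 11.8% of the list lies below the background. Cmpk2 means were 10.2 ± 1.73, 12.4 ± 2.1 and 6.14 ± 0.568 CPM at months 4, 9 and 12 (SD, n = 3 each), and every library of month 12 lay below every one of months 4 and 9. Ifit2 means were 7.7 ± 1.15, 7.61 ± 0.483 and 4.46 ± 1.27 CPM, with the same order of libraries. Both genes were thus lowest at month 12. Zbp1 means were 2.88 ± 0.384, 3.61 ± 0.588 and 8.14 ± 5.25 CPM and Oas2 means 2.43 ± 1.07, 1.91 ± 0.191 and 6.53 ± 6.49 CPM, with the large spread of month 12 coming from control replicate 2. Without that library, the calls of Zbp1 (adjusted p = 0.366) and Oas2 (0.712) were lost, while Cmpk2 (0.0118) and Ifit2 (0.0194) stayed called. Over all 9 fits that left out 1 library, Cmpk2 was called in 9 and Ifit2 in 2, with adjusted p-values of up to 0.177 for Ifit2. With the Gm26917 covariate none of the 4 was called, with adjusted p-values of 0.844, 0.912, 0.944 and 0.992. The share of Gm26917 was 1.65% ± 0.36 in control livers at month 12 against 0.49% ± 0.0197 and 0.5% ± 0.0416 at months 4 and 9 (SD, n = 3 each). Its lowest value at month 12, 1.33%, lay above its highest at the other 2 months, 0.526%, so this fit cannot cleanly separate time from that share.

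In irradiated livers over the same months edgeR called 0 of the 34 genes (2 at an unadjusted p under 0.05; DESeq2 1, voom 2), against 2.93% of all genes. Herc6 had the smallest adjusted p, 0.0616, with 12, 13.9 and 12.5 CPM at month 4, 15.5, 13.7 and 14.5 CPM at month 9 and 19.2, 23.1 and 18.6 CPM at month 12. All 3 libraries of month 12 were the highest of the 9. Trim30a (0.231), Ifi35 (0.285), Usp18 (0.297) and Ifi27 (0.298) followed. Cmpk2, called over time in control livers, had an adjusted p of 0.625 here, and its monthly levels of 11.1 ± 1.4, 9.12 ± 0.791 and 10.9 ± 3.8 CPM (SD, n = 3 each) overlapped.

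Across the border between the early and later libraries, 1 gene of the list, Ifi27, a small interferon-alpha-inducible protein, had every early value below every later one, at 34.1 to 65 CPM against 70.1 to 148 CPM. This pattern held for 7.21% of all genes. None had every early value above the later ones, against 1.29% of all genes. The other 33 genes overlapped. Time cannot be told apart from the difference in library make-up here.

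The machinery around the list was read from 5 further gene lists. Most interferon genes themselves were near the floor: 9 of the 10 ligands were not tested, with at most 8 reads in any library, so a change in them was not detectable at this depth. The other ligand, Ifnk, had up to 80 reads and was called at no month. Its log2 fold changes were 0.48, 0.54, 0.95, 0.92 and −0.28 at months 1, 2, 4, 9 and 12. In the mean over months it had 0.52 (adjusted p = 0.0687). Its irradiated libraries all lay above the controls at months 2 and 4, where 34.2 and 30.2% of all genes had no overlap. Of 9 receptors and kinases, irradiated livers had lower Ifngr2, a chain of the interferon-gamma receptor, and lower Ifnar1 at month 1, where 4.6% of all genes were called. Ifngr2 was at 17.9, 15.5 and 10.4 CPM in control and 8.97, 7.1 and 9.15 CPM in irradiated livers, which is −0.81 ± 0.21 on the log2 scale (SE; adjusted p = 0.0247). Ifnar1 was at 60, 51.6 and 50.9 against 41.8, 40.9 and 43.7 CPM, at −0.36 ± 0.11 (SE; adjusted p = 0.0424). All irradiated values lay below all controls in both genes, and 18.6% of all genes had no overlap in 1 direction or the other. At month 2, where 4.37% of all genes were called, Ifngr2 was again lower, at 16.4, 17.4 and 16.6 against 9.09, 9.59 and 10.5 CPM, or −0.79 ± 0.21 (SE; adjusted p = 0.0318). No receptor or kinase was called at months 4, 9 and 12. Ifngr2 and Ifnar1 were lower in the mean over months, at −0.34 ± 0.09 (SE; adjusted p = 0.0284) and −0.16 ± 0.05 (SE; adjusted p = 0.0475), where 5.26% of all genes were called. The calls in these 5 lists are those of the main edgeR fit and were not followed through the other ways of processing. The share of Gm26917 did not overlap between the arms at months 1, 2, 4 and 12, and its part in these calls was not tested.

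Of 13 further transcription factors and inhibitors of the pathway, 1 was called at each of months 1, 2 and 4, at which 4.6, 4.37 and 3.6% of all genes were called. Irf2bp2, a corepressor of Irf2, was at 31, 34.8 and 33.4 CPM in control and 79.8, 101 and 109 CPM in irradiated livers at month 1, at 1.55 ± 0.30 (SE; adjusted p = 0.00347). Its control livers were at 104, 109 and 128 CPM at month 2, so the low group was the controls of month 1. Ptpn11, a phosphatase, was lower at month 2 (−0.55 ± 0.14, SE; adjusted p = 0.0258). Irf2, which competes with Irf1 for its sites, was at 32.6, 25.5 and 38.1 against 45.9, 52.4 and 46.8 CPM at month 4, at 0.60 ± 0.17 (SE; adjusted p = 0.0447). Irf1 was lower in the mean over months, at −0.41 ± 0.09 (SE; adjusted p = 0.0123), where 5.26% of all genes were called.

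Of 18 tested genes of nucleic acid sensing, 1 was called at month 1, against 4.6% of all genes. It was Rnaseh2b, a subunit of the enzyme that removes RNA from DNA. Rnaseh2b was at 8.13, 7.63 and 5.64 CPM in control and 3.11, 3.21 and 3.28 CPM in irradiated livers, at −1.16 ± 0.21 (SE; adjusted p = 0.00114), with no overlap. It was also lower in the mean over months, at −0.38 ± 0.09 (SE; adjusted p = 0.0153). No other gene of this list was called in a month. Of 56 tested further interferon-stimulated genes, Slfn9 was lower at month 1 (−0.77 ± 0.22, SE; adjusted p = 0.0439) and Trim14 at month 9 (−0.70 ± 0.19, SE; adjusted p = 0.0484), where its values were 19.3, 14.9 and 16.5 CPM in control and 7.6, 12 and 11.6 CPM in irradiated livers. Znfx1 (−0.24 ± 0.06, SE; adjusted p = 0.0261) and Nmi (−0.21 ± 0.06, SE; adjusted p = 0.0476) were lower in the mean over months, in which 5.26% of all genes were called. At months 1 and 9, 4.6 and 1.66% of all genes were called. The monthly medians of these 56 genes were 0.02, −0.09, −0.15, 0.01 and −0.18 on the log2 scale, and those of the 34 genes are given above.

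Between months 1 and 2 in control livers, where 9.8% of all genes were called, Parp10 (−0.60 ± 0.17, SE; adjusted p = 0.0199) and Uba7, the enzyme that activates ISG15 (−0.70 ± 0.22, SE; adjusted p = 0.0391), fell with Usp18, while the adaptors Ticam1 (1.22 ± 0.19, SE; adjusted p = 0.000264), Traf3 (0.65 ± 0.18, SE; adjusted p = 0.0215) and Myd88 (0.99 ± 0.32, SE; adjusted p = 0.0492) and the receptor chain Ifnar2 (0.40 ± 0.13, SE; adjusted p = 0.0409) rose. Irf2bp2 (1.78 ± 0.30, SE; adjusted p = 0.000815) and Ptpn11 (0.43 ± 0.14, SE; adjusted p = 0.0427) rose too. Over months 4, 9 and 12 in control livers, 6 of the 56 further interferon-stimulated genes changed, where 20.2% of all genes were called: Lgals9 (adjusted p = 0.00707), Sp100 (0.00794), Nlrc5 (0.0368), Pml (0.037), Ly6e (0.0386) and Trim30d (0.0445). In the other lists Ifnk (0.000628), Irf2 (3.35e-06), Pias1 (0.0178), Rnaseh2c (0.00464), Ticam1 (0.0386) and Adar (0.0479) changed in these livers. In irradiated livers Trim30d (0.0153) was the gene of the 5 lists that changed over these months, against 2.93% of all genes.

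Markers of other liver cells were read beside the list at each month. Kupffer cell markers summed at month 2 to a mean of 429 ± 154 CPM in control and 265 ± 28.8 CPM in irradiated livers (SD, n = 3 each). The means of month 4 were 426 ± 57.6 and 309 ± 69.1 CPM, and those of month 9 were 437 ± 109 and 596 ± 289 CPM (SD, n = 3 each). At month 1 they were 317 ± 90.9 and 362 ± 96.6 CPM, and at month 12 they were 673 ± 718 and 394 ± 119 CPM (SD, n = 3 each). Of these 11 genes, 2, 11, 9, 1 and 10 had a log2 fold change below 0 at months 1, 2, 4, 9 and 12. At month 4 both these markers and the interferon-stimulated genes were mostly below 0 in irradiated livers, and at month 9 the markers were mostly above 0 and 20 of the 34 genes below it. Of 7 hepatocyte markers, 5, 7, 6, 2 and 3 were below 0 at months 1, 2, 4, 9 and 12. At month 2 they summed to 81591 ± 5261 CPM in control and 67052 ± 4285 CPM in irradiated livers (SD, n = 3 each). At month 4, 8 of 8 endothelial, 6 of 7 stellate cell and 5 of 5 erythroid markers were below 0. So were 6 of 8 neutrophil, 4 of 5 monocyte and 4 of 5 cholangiocyte markers. Above 0 were 6 of 6 B cell, 4 of 5 conventional dendritic cell and 4 of 8 T and NK cell markers. At month 9, 8 of 8 endothelial, 7 of 7 stellate cell and 4 of 5 erythroid markers were below 0. So were 5 of 6 B cell and 5 of 8 T and NK cell markers. Above it were 8 of 8 neutrophil, 5 of 5 monocyte, 4 of 5 cholangiocyte and 3 of 5 conventional dendritic cell markers. Plasmacytoid dendritic cell markers, which would mark the main source of interferon alpha, summed to 1.54 to 10.1 CPM and T and NK cell markers to 3.38 to 8.65 CPM over all libraries. The part of cell numbers in the differences between arms was not tested.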

How the data were processed

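RNA of left liver lobes was sequenced in 30 libraries, 3 biological replicates for each of 2 arms at 5 times. The authors deposited raw read counts per gene. Reads were aligned to GRCm38 with STAR 2.5.3a, per the submitters' processing notes, and counted over Gencode M14, per the series' design text. Which strand column was taken is not given in the sources used here. Totals of 7995248 to 20215995 counts per library limit the precision of low genes. Identifiers were named from Gencode M21, which matched 51633 of 51826. No pair of libraries within a group was a duplicate: the lowest chi-square per gene of these 30 pairs was 10.16. Pairs of libraries from different groups were not compared.

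Counts were analysed with edgeR 4.0.16 in R 4.3.3: the low-count filter kept genes with at least 10 counts in enough libraries and 15 in all, scaling was by TMM, and a robust quasi-likelihood fit had 1 coefficient for each group. P-values were adjusted by Benjamini-Hochberg over 19685 genes, and genes were called under 0.05. P-values set a difference against the spread between libraries within groups, which was estimated over all 10 groups of 3 libraries. The fitting code was tested on simulated data. Alternatives were DESeq2 1.42.0, limma voom 3.58.1 with library quality weights, other scalings and filters, and a replicate block. Further ones were the log2 CPM of Gm26917 as a covariate, fits of the compared groups alone and fits without 1 library. The share of Gm26917 did not overlap between the arms at months 1, 2, 4 and 12, so the covariate fit cannot cleanly separate it from irradiation there. Figures and tables used Python 3.11.15 with matplotlib 3.10.9.

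The members and gene lists were chosen with earlier results of these data known. Named genes are those called in each comparison, filled up to 5 by the smallest p. Values in every library are given for called members and for Ifit1, Isg15, Irf7, Stat2, Cxcl10 and Bst2, and for a few others chosen after their values were seen, such as Oas3, Oasl1, Oasl2, Parp9, Rsad2 and Herc6. Of the other lists, called genes are named. Of the 197 list genes 194 were found.

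Replicate numbers were checked as pairs by correlating the deviations of same-numbered libraries of both arms from their group means. Every pair exceeded 0.1 at month 12 alone, at 0.186, 0.346 and 0.186. At that month the highest correlation with a library of another number was 0.233 for replicates 1 and 3, above their own, and −0.122 for replicate 2. The labels give no shared litter, batch or day.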

Additional observations from a re-analysis of the deposited data

Results flagged for a closer look

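For 10 genes of the list and of the pathway lists, the irradiation effect differed between the 5 months by edgeR's F test, with Benjamini-Hochberg adjustment over all genes tested, of which 11% were called. The log2 fold changes, irradiated over control, are given in the order of months 1, 2, 4, 9 and 12. Within the list of 34 it was Cmpk2 (adjusted p = 0.0406), at 0.49, 0.38, 0.12, −0.44 and 0.83. Among transcription factors and inhibitors, Irf2 (adjusted p = 0.00826) was at −0.01, −0.20, 0.60, 0.54 and −0.52. Irf2bp2 (adjusted p = 0.0212) was at 1.55, −0.46, 0.31, 0.05 and 0.00. Ptpn11 (adjusted p = 0.0479) was at −0.29, −0.55, 0.03, 0.13 and 0.11. The receptor chain Ifnar2 (adjusted p = 0.0112) was at 0.24, −0.22, 0.22, −0.41 and −0.51, and Ifngr2 (adjusted p = 0.0271) at −0.81, −0.79, −0.15, 0.35 and −0.30. Among sensing genes, Rnaseh2b (adjusted p = 0.0242) was at −1.16, −0.51, −0.31, 0.01 and 0.07, and the adaptor Ticam1 (adjusted p = 0.0406) at 0.37, −0.46, −0.38, 0.25 and −0.51. Among further interferon-stimulated genes, Trim14 (adjusted p = 0.0215) was at 0.40, 0.27, 0.17, −0.70 and −0.31, and Tor3a (adjusted p = 0.0379) at 0.73, −0.02, −0.32, −0.56 and −0.26. Of these 10 genes, Irf2bp2, Rnaseh2b, Tor3a and Ifngr2 differed most at month 1. The share of Gm26917 did not overlap between the arms at months 1, 2, 4 and 12. With the log2 CPM of Gm26917 as a covariate in edgeR, Cmpk2 was not called (adjusted p = 0.101). That fit cannot cleanly separate irradiation from the share. Its part in the other genes was not tested.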

How the results depend on the processing

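The counts of called genes among the 34 moved with the processing as follows. At month 1 the count was 1 with upper quartile factors, DESeq2, the replicate block and the compared groups alone, and 2 with voom. At month 2 it was 1 with voom and 2 with the groups alone, at month 4 3 and 1, and at month 12 2 with DESeq2. The mean over months gave 1 with upper quartile factors, voom and the replicate block. The effect differing between months gave 3 with DESeq2, 5 with voom, 3 with the replicate block and 0 with the Gm26917 covariate. Control livers, month 2 against month 1, gave 2 with upper quartile factors, the stricter filter, DESeq2 and the groups alone, 4 with voom and 0 without the low-count filter, and irradiated livers 1 with voom. Over months 4, 9 and 12 control livers gave 2 without the low-count filter and with the replicate block and 0 with the covariate, and irradiated livers 1 with upper quartile factors, the stricter filter and DESeq2 and 2 with voom. The replicate block changed no other count by over 1.5 times. Fits without 1 library gave 0 to 3 at month 1 (3 without control replicate 3: Ifih1, Dtx3l and Ifit3), 0 at months 2, 4, 9 and 12, 0 to 2 for the mean, 0 to 3 for the effect differing between months (3 without control month 12 replicate 1 or irradiated month 12 replicate 2), 0 to 1 and 0 for months 1 to 2 in control and irradiated livers, 2 to 7 over the later months in control livers (7 without control month 12 replicate 1) and 0 to 2 in irradiated ones (2 without irradiated month 9 replicate 2). Leaving out both control replicate 2 at month 12 and irradiated replicate 3 at month 1 was chosen after seeing the data. It turned Zbp1 in irradiated livers, month 2 against month 1, from −0.61 to 0.23, and fits without 1 library ran from −1.02 to 0.17, the latter without irradiated month 1 replicate 3. Of 1115 values of named genes under these settings, 1012 kept their direction and their side of the threshold, 54 lost a call, 47 gained one and 2 turned. Depth limits the interferon genes, of which 9 of 10 were not tested.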

Other observations

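Mx2, a gene for a GTPase against viruses that the annotation lists as a polymorphic pseudogene, was highest in the library with the highest sum of neutrophil markers in 9 of the 10 groups. The count for a gene of the list was 4 at the median, and all genes tested averaged 3.51 of 10. In control livers at month 2, replicate 2 had 45.8 CPM of neutrophil markers and 35.3 CPM of Mx2, where the mean of the other 2 libraries was 18.2 CPM. In irradiated livers at month 12, replicate 2 had 23.6 CPM of these markers and 15 CPM of Mx2, against 7.16 CPM. The highest marker sum of a group was 2.64 CPM in control livers at month 9, the exception, and it was 2.76 and 3.56 CPM in irradiated livers at months 2 and 4, which were counted as matches. Parp14, a mono-ADP-ribosyltransferase, was highest in the library with the highest sum of Kupffer cell markers in 9 of 10 groups, where the list had a median of 5 and all genes averaged 3.41. Cmpk2 gave 1 and 2 of 10 for these lists. These counts were made after the values were seen, the libraries of a group share no test here, and the part of cell numbers was not tested.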
